A study of Mus musculus with 24 samples.

Results

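The genes described here code for sensors of nucleic acids in the cytosol and for enzymes that edit, degrade or respond to such nucleic acids. They are 10 named genes, Ifih1, Dhx58, Mavs, Tbk1, Zbp1, Aim2, Trex1, Samhd1, Adar and Eif2ak2, matched by Ensembl identifier among the 55357 genes of the deposited count table. Of the 10, 9 had counts and passed the filter on low counts, and Trex1 had no count in any of the 24 libraries.

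Cells watch their cytosol for RNA and DNA that signal infection or damage. The helicases encoded by Ifih1 (MDA5) and Dhx58 (LGP2) bind viral RNA, and MDA5 signals through the mitochondrial adaptor protein MAVS. The kinase TBK1 then phosphorylates interferon regulatory factors, which switch on type I interferon genes. Zbp1 codes for a sensor of nucleic acids in the Z conformation that can start necroptosis, and Aim2 for a DNA sensor that assembles an inflammasome. TREX1 degrades DNA, and SAMHD1 lowers the cell's pool of deoxynucleotides. ADAR1, the product of Adar, converts adenosine to inosine in RNA, and PKR, the product of Eif2ak2, binds RNA duplexes and slows translation by phosphorylating eIF2α. Interferon raises many of these genes in macrophages, and lipopolysaccharide (LPS), a bacterial cell wall component read by Toll-like receptor 4, leads macrophages to make interferon. Dexamethasone is a synthetic glucocorticoid that acts through the glucocorticoid receptor and restrains inflammatory genes.

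The study measured RNA by sequencing in macrophages grown from the bone marrow of C57BL/6J wild-type mice aged 8 to 12 weeks, grown with L929 supernatant as the source of M-CSF. The cells were left untreated, given 100 nM dexamethasone, given 100 ng LPS in a volume that the labels do not state, or given both agents, and were collected at 4 h or 24 h. Each of the 8 groups has 3 libraries, and all cells are wild type. The stated aim concerns how time shapes glucocorticoid action on LPS-treated cells. Nothing in the labels tells if replicate libraries are separate mice or cultures, so every p-value reflects the spread among the libraries alone, which may be technical.

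Library totals ran from 18326206 to 27908164 counts. Levels are given as CPM, counts scaled by library size and a trimmed-mean factor, with the mean ± SD of n = 3 libraries. Log2 fold changes come with an approximate standard error (SE), and a gene is called changed at a Benjamini-Hochberg adjusted p under 0.05 over the 14985 genes tested with edgeR's quasi-likelihood test. Scaling by library size alone moved the median log2 fold change of all genes by -0.77 for LPS at 4 h and by 0.21 for dexamethasone under LPS at 4 h, and the changes below are relative to the trimmed-mean scaling. The 8 macrophage markers summed to 16740 to 18720 CPM in untreated cells at 4 h and to at least 17470 CPM in every other group. The 6 conventional dendritic cell markers summed to 15.9 CPM or less in every library.

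Per kilobase of exon, the genes spanned a wide range in untreated cells at 4 h. Tbk1 and Samhd1 led with 27.4 ± 0.44 and 23.7 ± 0.732 CPM per kilobase. Dhx58 at 14.2 ± 0.882, Eif2ak2 at 13.2 ± 0.503, Mavs at 11.8 ± 0.761 and Adar at 10.9 ± 0.0998 followed. Of these neighbours Dhx58 and Eif2ak2 differed by less than their summed SD. Aim2 stood at 8.09 ± 0.452, Ifih1 at 4.37 ± 0.567 and Zbp1 at 1.93 ± 0.321 CPM per kilobase. After 4 h of LPS the order had changed, with Samhd1 at 257 ± 8.30 and Ifih1 at 243 ± 1.90 first and Mavs at 4.82 ± 0.453 CPM per kilobase last of the 9. Eif2ak2 at 144 ± 2.78 and Zbp1 at 153 ± 14.7 CPM per kilobase were neighbours that differed by less than the SD of Zbp1. After 24 h of LPS Zbp1 was first, at 98.1 ± 4.81, before Samhd1 at 83.1 ± 2.59 CPM per kilobase, and Mavs was last of the 9 at 12.2 ± 0.855. There Adar at 22.3 ± 0.882 and Ifih1 at 22.01 ± 0.163 CPM per kilobase did not differ beyond their spread.

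In the GENCODE M29 gene models of the count table, Ifih1 (ENSMUSG00000026896.15) spans chr2:62426142-62476599 on the minus strand, with 8165 exon bases. On the same chromosome lie Mavs (chr2:131075983-131089945, plus strand), Samhd1 (chr2:156939453-156977185, minus strand) and Zbp1 (chr2:173048405-173060716, minus strand). Dhx58 spans chr11:100585710-100595097 (minus), Tbk1 chr10:121382360-121422692 (minus) and Aim2 chr1:173178445-173293606 (plus). Adar spans chr3:89622329-89660753 (plus), Eif2ak2 chr17:79159993-79190002 (minus) and Trex1 chr9:108887001-108888802 (minus). The labels list GRCm38 and mm10 as the build, yet none of the 10 genes starts at the same base in the table as in GENCODE M21, an annotation of GRCm38. The build used for the alignment is therefore uncertain. Reads were assigned to genes by position, so the counts depend on that build, and its effect was not tested.

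Trex1, the DNA exonuclease gene, was listed at 0 in all 24 libraries. All of its 1147 exon bases lie within exons of Atrip, the ATR-interacting protein gene on the same strand, which had 212 to 626 counts per library. Per the file header, reads that overlap more than one gene were not counted, so this 0 sets no upper limit on Trex1 RNA. Of the other members, Adar shares 16.8% of its exon bases with Chrnb2 on the opposite strand, Dhx58 shares 4.3% with Dhx58os and Eif2ak2 shares 0.9% with n-R5s85. Counting ignored strand, so reads from those overlaps were left out of both genes.

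Promoter windows from RefSeq (GRCm38.p6) cover 250 bases before a transcript start and 50 from it on, and 8 of the 10 genes had at least one, 11 windows in all. They were searched on both strands for the core of an interferon-stimulated response element (GAAA, any 2 bases, GAAA), which 3.44% of the 32851 mouse windows hold, and for a GAS-type site, TTCNNNGAA, which 8.30% hold. Dhx58 and Zbp1 had no window and were not searched. The interferon element core occurred in the windows of Ifih1 and Eif2ak2, at bases 32 to 41 and 18 to 27 with the start base counted as 0. The GAS-type letters occurred in Samhd1, at bases -235 to -227, in Eif2ak2, at bases -178 to -170, and in 1 of the 3 windows of Adar, at bases 22 to 30. The windows of Mavs, Tbk1, Aim2 and Trex1 held neither. Tbk1 and Aim2 were among the genes that rose with LPS, and any relation of the matches to the LPS changes was not tested. The runs below show all the matches in capitals with their flanks, each read 5′ to 3′ on the gene's strand.
Ifih1, interferon element core, chr2:62646206-62646233, minus strand: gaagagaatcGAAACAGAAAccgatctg
Eif2ak2, interferon element core, chr17:78882535-78882564, minus strand: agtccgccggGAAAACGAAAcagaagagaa
Samhd1, GAS type, chr2:157135313-157135341, minus strand: acaccaccctTTCGGAGAAacacaagggc
Eif2ak2, GAS type, chr17:78882732-78882760, minus strand: ctgcagagctTTCCCAGAAtggaagccag
Adar, GAS type, chr3:89730730-89730758, plus strand: gggaagccttTTCAAGGAAacgaaagtga
No window of the 8 genes held a kB-type site (GGGA, any 3 bases, TCC, in 4.59% of all windows), or the glucocorticoid response element letters ACANNNTGT (6.85% of all windows). A match of these letters is a description of the sequence and does not show binding. Near matches were not searched for, and a window without the letters says nothing about sites elsewhere.

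The first comparison asked what LPS did to these genes at 4 h. Both helicase genes, Zbp1, Aim2, Samhd1, Adar, Eif2ak2 and Tbk1 rose, by 3.31-fold for Tbk1 up to 79.1-fold for Zbp1 in the ratio of mean CPM, while the adaptor gene Mavs fell to 40.8% of its untreated level. Thus 8 of the 9 tested genes were higher and 1 was lower, against 34.2% of all tested genes called higher and 38.8% called lower. Their median log2 fold change was 3.44, and that of all genes was -0.07. For all 9 genes the 3 LPS libraries lay wholly apart from the 3 untreated libraries. The share of all tested genes with such a separation was not counted, so it cannot be called particular to the 9. The same holds for the separations described below.

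Ifih1, the MDA5 gene, stood at 41.0, 33.8 and 32.3 CPM in the 3 untreated libraries and at 2001, 1972 and 1977 CPM with LPS. The LPS libraries were close to each other and all far above the untreated ones (log2 fold change 5.79 ± 0.09 SE, adjusted p = 2.2e-29). Dhx58, coding for LGP2, a helicase without the signalling domains of MDA5, went from 49.5, 45.7 and 43.8 CPM to 525, 584 and 574 CPM. This rise was smaller than that of Ifih1 on the log scale (3.60 ± 0.08, adjusted p = 2.0e-26).

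Mavs went the other way, from 41.1, 36.6 and 40.9 CPM to 15.6, 14.9 and 17.8 CPM. Every LPS library was below every untreated library (log2 fold change -1.30 ± 0.08, adjusted p = 1.1e-17). Its read support was the thinnest of the 9 genes in this group, at 261 to 299 counts per library. Tbk1, the kinase downstream of MAVS, rose from 106, 107 and 109 CPM to 333, 369.6 and 361 CPM (1.73 ± 0.05, adjusted p = 3.0e-27). It was the least raised of the 8 genes that rose.

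Zbp1 had the lowest level in untreated cells, 8.09, 6.50 and 5.89 CPM from 128 to 259 counts, and reached 479.8, 567 and 573 CPM with LPS. Its log2 fold change was 6.28 ± 0.17 (adjusted p = 4.4e-17). Aim2, the DNA sensor of the inflammasome, went from 29.3, 26.5 and 29.2 CPM to 259, 262 and 251 CPM (3.18 ± 0.06, adjusted p = 3.8e-32). The groups of both genes were far apart, with no library between them.

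Among the modifiers, Samhd1 rose from 218, 223 and 209.6 CPM to 2277, 2347 and 2428 CPM (3.44 ± 0.07, adjusted p = 1.1e-32). Adar, the RNA editing enzyme gene, went from 89.8, 88.6 and 88.3 CPM to 558, 567 and 567 CPM (2.67 ± 0.06, adjusted p = 5.3e-30). Eif2ak2, the PKR gene, went from 70.4, 65.4 and 66.8 CPM to 721, 744 and 746 CPM (3.45 ± 0.07, adjusted p = 4.2e-32). These 3 genes had narrow spreads in both groups.

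**Figure D1:**
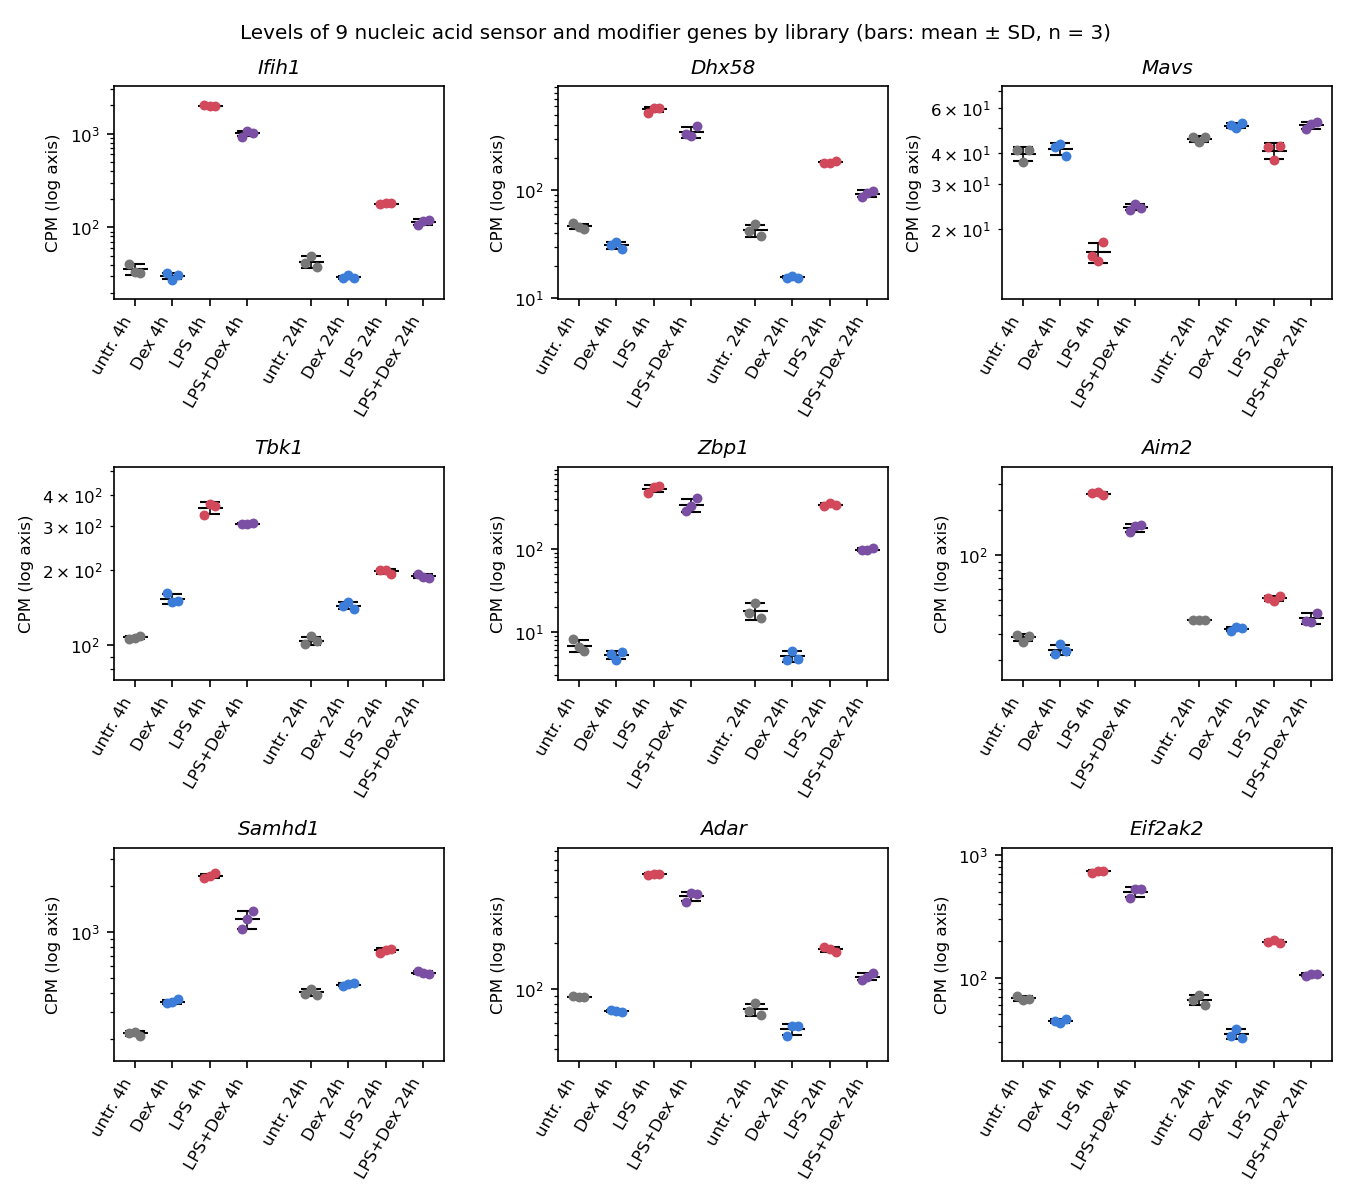
Level of each of the 9 genes with counts, in CPM on a log axis, by treatment and time. Points are the 3 libraries of a group and bars the mean ± SD. In the LPS group at 4 h 8 genes are at their highest, such as Ifih1 at 1972 to 2001 CPM, and Mavs is at its lowest, at 14.9 to 17.8 CPM.

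Marker lists of other cell types moved with LPS at 4 h. The 6 plasmacytoid dendritic cell markers summed to 325 to 329.6 CPM against 80.1 to 91.7 CPM in untreated cells, with Klk1 at 0 in both groups. The 7 stromal and endothelial markers summed to 139.8 to 186 CPM against 14.6 to 21.04 CPM, and the 10 neutrophil markers to 119 to 165 CPM against 42.3 to 62.7 CPM. Dcn and Ly6g, of these last lists, were at 0 in untreated cells. The 6 conventional dendritic cell markers summed to 13.5 to 14.95 CPM against 2.16 to 2.97 CPM. Macrophage markers were also higher, at 22280 to 24370 CPM. Their part in the changes of the sensor genes was not tested. In such bulk libraries a changed share of a cell type and a changed amount of RNA per cell cannot be told apart.

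By 24 h the LPS response of these genes was smaller but still present. The same count of 8 of 9 genes was higher, with 29.7% of all genes called higher and 30.6% lower, and the median log2 fold change was 1.31 against -0.02 for all genes. Zbp1 kept the widest separation, at 335, 366 and 338 CPM with LPS against 16.98, 22.6 and 14.5 CPM without (4.26 ± 0.15, adjusted p = 5.9e-15). Ifih1 and Dhx58 had log2 fold changes of 2.06 ± 0.08 and 2.10 ± 0.08, Eif2ak2 1.58 ± 0.07, Adar 1.31 ± 0.06, Samhd1 and Tbk1 0.92 each, and Aim2 0.48 ± 0.06, with adjusted p of 2.9e-08 or less in each case. No member was called lower in the main edgeR fit or by DESeq2, and 1, Mavs, was lower at an unadjusted p under 0.05. Mavs stood at 42.2, 37.4 and 42.6 CPM with LPS and at 46.0, 44.0 and 46.0 CPM without (-0.15 ± 0.07, adjusted p = 0.051). Mavs was called lower by edgeR with library size alone as the scale (-0.35, adjusted p = 4.4e-05). With a filter of at least 10 CPM in at least 3 libraries it was also called (-0.17, adjusted p = 0.025). So it was with only the groups compared in the fit (-0.15, adjusted p = 0.044) and without the third LPS library of 24 h (-0.19, adjusted p = 0.039). No filter and the replicate number as a block left it uncalled. Macrophage markers summed to 48450 to 52330 CPM with LPS against 22020 to 24210 CPM in untreated cells at 24 h. Plasmacytoid dendritic cell markers were lower, at 54.5 to 59.8 against 95.8 to 111 CPM, while neutrophil markers were at 9.03 to 10.9 against 3.13 to 3.67 CPM and stromal and endothelial markers at 29.9 to 32.9 against 15.7 to 23.3 CPM. With LPS Cd209a, Retnlg, Klk1 and Col1a1 were at 0. The part of these lists in the values above was not tested.

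The LPS effect itself was tested between the times. It was lower at 24 h than at 4 h for 8 genes and higher for 1, against 30.5% of all genes called lower and 30.8% called higher in this comparison. Ifih1 had the widest gap, a difference of log2 fold changes of -3.73 ± 0.12 (adjusted p = 1.3e-21), as its level with LPS went from a mean of 1983 CPM at 4 h to 179.7 ± 1.33 CPM at 24 h. Aim2 (-2.70 ± 0.09) and Samhd1 (-2.52 ± 0.09) followed. Zbp1 (-2.02 ± 0.22), Eif2ak2 (-1.87 ± 0.09), Dhx58 (-1.50 ± 0.11), Adar (-1.36 ± 0.09) and Tbk1 (-0.80 ± 0.07) had smaller gaps. Mavs was the gene with the opposite sign (1.15 ± 0.10, adjusted p = 3.2e-12), from -1.30 at 4 h to -0.15 at 24 h.

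Untreated cells also differed between 4 h and 24 h in culture, which bears on the baseline of each time. Of the 9 genes 5 were higher at 24 h and 1 was lower, against 30.6% and 30.4% of all genes. Zbp1 went from 8.09, 6.50 and 5.89 CPM to 16.98, 22.6 and 14.5 CPM (1.38 ± 0.18, adjusted p = 2.9e-06). Samhd1 went from 209.6 to 223 CPM up to 390.0 to 427 CPM (0.89 ± 0.06, adjusted p = 3.3e-15). Aim2 rose by a log2 fold change of 0.39, Ifih1 by 0.27 and Mavs by 0.19, and Adar fell by 0.28. The Ifih1 groups overlapped, and its call was lost without the second untreated library of 24 h (0.15, adjusted p = 0.13) or the third of 4 h (0.20, adjusted p = 0.063). That of Mavs was lost without the second untreated library of 4 h (0.14, adjusted p = 0.1) and with library size alone as the scale (0.14, adjusted p = 0.078). Dhx58, not called at -0.12, was called lower without the second untreated library of 24 h (-0.23, adjusted p = 0.019). Neutrophil markers summed to 3.13 to 3.67 CPM at 24 h against 42.3 to 62.7 CPM at 4 h, with Ly6g at 0 at both times, and macrophage markers to 22020 to 24210 against 16740 to 18720 CPM. Their part in these changes was not tested.

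The main question of the study was what dexamethasone did under LPS. At 4 h all 8 genes that LPS had raised were lower with dexamethasone than with LPS alone, except that Tbk1 was not with library size alone as the scale. Mavs, which LPS had lowered, was higher. Against 25.4% of all genes called lower and 23.9% called higher, 8 of the 9 genes were lower and 1 was higher, with a median log2 fold change of -0.65 (0 over all genes). This comparison shares the LPS libraries with the one of LPS against untreated, so the directions of the 2 comparisons are not independent of each other.

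Ifih1 stood at 929, 1059 and 1027 CPM with both agents, 50.7% of its mean with LPS alone (log2 fold change -0.98 ± 0.07, adjusted p = 3.7e-12). Samhd1 was at 1055, 1223 and 1377 CPM, 51.8% of the LPS mean (-0.95 ± 0.06, adjusted p = 7.0e-16). Aim2 was at 142, 158 and 158 CPM, or 59.3% (-0.75 ± 0.06, adjusted p = 7.4e-14). In these 3 genes the lowest LPS library lay well above the highest library with both agents.

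Dhx58 (335, 316 and 394 CPM) and Zbp1 (291, 330.3 and 413 CPM) were at 62.1% and 63.8% of their LPS means. Their spread with both agents was wider, an SD of 40.8 and 62.2 CPM, and the groups still did not overlap. Eif2ak2 was at 444, 533 and 528 CPM (-0.55 ± 0.06) and Adar at 369.5, 424 and 418 CPM (-0.48 ± 0.06). Tbk1 was lower by the least, at 307, 307 and 309 CPM against 333 to 369.6 CPM (-0.21 ± 0.05, adjusted p = 4.5e-04), and with library size alone as the scale its log2 fold change was 0.02 (adjusted p = 0.8).

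Mavs rose from 14.9 to 17.8 CPM with LPS to 23.7, 25.1 and 24.2 CPM with both agents (0.60 ± 0.08, adjusted p = 8.1e-08). All 3 libraries with both agents were above all 3 with LPS alone and below the 36.6 CPM of the lowest untreated library. The marker lists of plasmacytoid dendritic cells and of stromal and endothelial cells were lower with both agents than with LPS alone, at 155 to 181 CPM and 115 to 123 CPM. Conventional dendritic cell markers were at 9.31 to 12.0 CPM and macrophage markers at 20610 to 21580 CPM, both also lower, and neutrophil markers at 81.3 to 126 CPM overlapped those with LPS alone. Klk1, Col1a2 and Ly6g were at 0 with both agents. Their part in these values was not tested.

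At 24 h dexamethasone under LPS lowered 7 of the 9 genes and raised 1, against 22.6% and 21% of all genes, with a median log2 fold change of -0.60 (0 over all genes). Zbp1 had the widest change, from 335, 366 and 338 CPM to 96.4, 97.6 and 103 CPM, or 28.6% of the LPS mean (-1.81 ± 0.13, adjusted p = 8.7e-10). Dhx58 went from 179, 181 and 186 CPM to 85.9, 94.8 and 99.4 CPM (-0.96 ± 0.08, adjusted p = 5.9e-12). Eif2ak2 went from 196, 205 and 191 CPM to 103, 106 and 108 CPM (-0.90 ± 0.06, adjusted p = 2.5e-14). In all 3 genes every library with both agents lay below every LPS library.

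Ifih1 (-0.66 ± 0.08), Adar (-0.60 ± 0.06), Samhd1 (-0.49 ± 0.06) and Aim2 (-0.45 ± 0.06) changed less. Mavs was again higher, at 49.5, 51.8 and 52.8 CPM against 42.2, 37.4 and 42.6 CPM (0.33 ± 0.07, adjusted p = 1.1e-04). Tbk1 was not called, at 186 to 194 CPM with both agents and 192 to 201 CPM with LPS (-0.06 ± 0.05, adjusted p = 0.3), and the groups overlapped. Stromal and endothelial markers summed to 7.97 to 9.17 CPM with both agents against 29.9 to 32.9 CPM with LPS, macrophage markers to 42200 to 43190 against 48450 to 52330 CPM, and plasmacytoid dendritic cell markers to 45.7 to 48.9 against 54.5 to 59.8 CPM. Neutrophil markers were higher, at 17.4 to 23.5 against 9.03 to 10.9 CPM. Cd209a, Ltf, Klk1 and Ly6d were at 0 with both agents. The part of these lists was not tested.

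**Figure D2:**
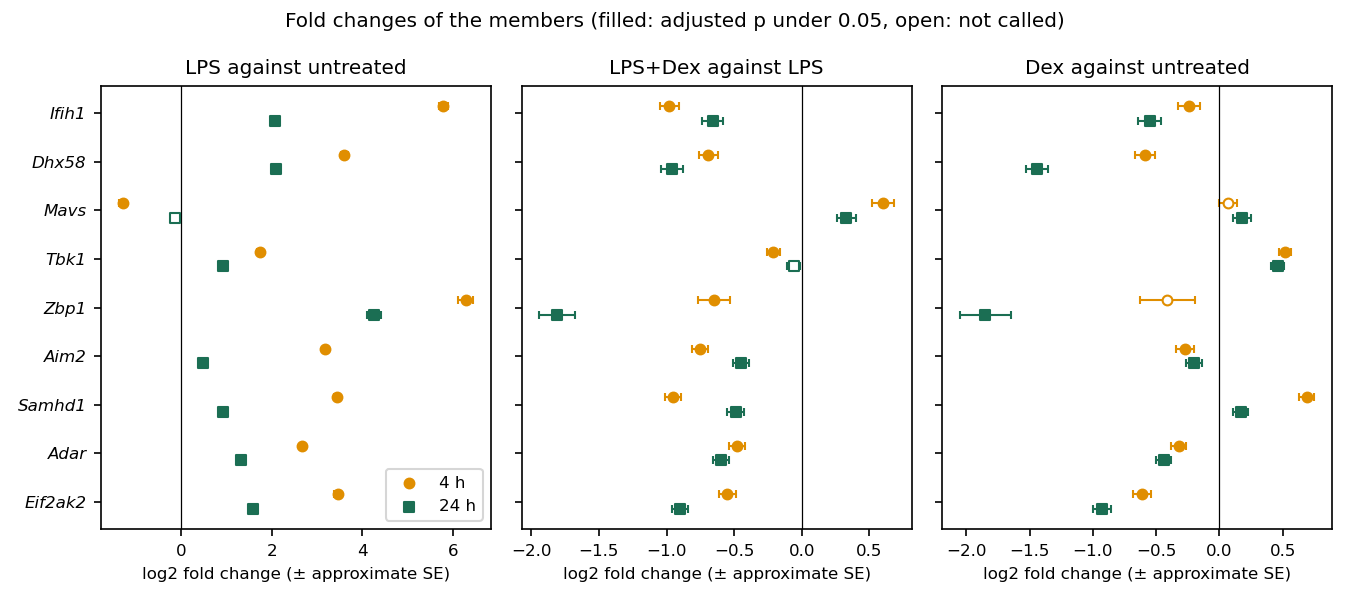
Log2 fold change of each gene, with the approximate SE, for LPS against untreated cells, dexamethasone added to LPS against LPS, and dexamethasone against untreated cells, at 4 h (circles) and 24 h (squares). Filled symbols have an adjusted p under 0.05. Under LPS, Mavs is to the right of 0 at both times, at 0.60 and 0.33, and Zbp1 moves from -0.65 at 4 h to -1.81 at 24 h.

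Set against untreated cells, LPS plus dexamethasone still left 8 of 9 genes higher and 1 lower at 4 h, beside 33.7% and 36.5% of all genes. Ifih1 remained 28.2-fold and Zbp1 50.5-fold above untreated in the ratio of means, and Mavs was at 61.6% of untreated (-0.70 ± 0.07, adjusted p = 7.0e-11). At 24 h 8 genes were higher, beside 28.8% of all genes, and none was lower with edgeR, at an unadjusted p under 0.05 or with DESeq2, beside 30.3% of all genes. Zbp1 remained 5.49-fold and Ifih1 2.64-fold above untreated. Aim2 was not called, at 36.6, 36.0 and 41.5 CPM against 37.2, 37.2 and 37.1 CPM (0.03 ± 0.06, adjusted p = 0.7). The call of Mavs at 24 h (0.18 ± 0.07, adjusted p = 0.021) was lost with library size alone as the scale (0.01, adjusted p = 0.88). It was also lost without the second untreated library (0.16, adjusted p = 0.078), or without the second (0.18, adjusted p = 0.053) or the third library with both agents (0.17, adjusted p = 0.062). With no filter it was lost as well (0.17, adjusted p = 0.079).

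Whether the dexamethasone effect under LPS differed between the times was tested directly. It was more negative at 24 h for Zbp1 (difference -1.16 ± 0.18, adjusted p = 3.2e-05), Eif2ak2 (-0.34 ± 0.09, adjusted p = 0.002) and Dhx58 (-0.28 ± 0.11, adjusted p = 0.038), and less positive for Mavs (-0.26 ± 0.11, adjusted p = 0.045). It was less negative at 24 h for Samhd1 (0.46 ± 0.08, adjusted p = 3.1e-05), Ifih1 (0.32 ± 0.11, adjusted p = 0.017) and Aim2 (0.31 ± 0.09, adjusted p = 0.0035). That makes 4 lower and 3 higher, against 19.8% and 19% of all genes, with Tbk1 and Adar not called. Tbk1 was called higher with DESeq2 (0.19, adjusted p = 0.015) and with a stricter filter of at least 10 CPM in at least 3 libraries (0.19, adjusted p = 0.017), and Adar lower with library size alone as the scale (-0.30, adjusted p = 0.0029). The RNA helicase genes had opposite signs, Ifih1 with the wider reduction at 4 h and Dhx58 at 24 h.

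The weaker of these calls depended on single libraries, the scale, the tool or the filter. With DESeq2 neither Dhx58 (-0.22, adjusted p = 0.11) nor Mavs (-0.21, adjusted p = 0.11) was called, and with the stricter filter neither Dhx58 (adjusted p = 0.074) nor Mavs (adjusted p = 0.078) was. Mavs was also lost with no filter (-0.28, adjusted p = 0.077) and with only the groups compared in the fit (-0.30, adjusted p = 0.051). The Dhx58 difference was not called when any one of 6 libraries was left out, down to -0.18 (adjusted p = 0.15) without the third library of both agents at 4 h. That of Mavs was not called when any one of 8 libraries was left out, for example -0.22 (adjusted p = 0.13) without the second LPS library of 4 h. Ifih1 was not called without the first library of both agents at 4 h (0.27, adjusted p = 0.058) or the third at 24 h (0.28, adjusted p = 0.058). With library size alone as the scale neither Ifih1 (0.14, adjusted p = 0.3) nor Aim2 (0.12, adjusted p = 0.26) was called. The calls of Zbp1, Samhd1, Aim2 and Eif2ak2 held without each of the 12 libraries in turn.

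Dexamethasone alone, without LPS, was compared with untreated cells next. At 4 h it lowered 5 of the 9 genes and raised 2, Samhd1 and Tbk1, beside 23.7% of all genes lower and 17.6% higher. Samhd1 went from 218, 223 and 209.6 CPM to 341, 348 and 362 CPM (0.69 ± 0.06, adjusted p = 5.3e-12), and Tbk1 from 106, 107 and 109 CPM to 162, 149 and 150 CPM (0.52 ± 0.05, adjusted p = 3.6e-11). In both genes all dexamethasone libraries were above all untreated ones. Eif2ak2 fell to 44.0, 43.0 and 45.7 CPM (-0.61 ± 0.07, adjusted p = 2.0e-09) and Dhx58 to 30.9, 33.2 and 28.6 CPM (-0.59 ± 0.08, adjusted p = 1.0e-06).

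Adar (-0.32 ± 0.06) and Aim2 (-0.27 ± 0.07) fell by less. The fall of Ifih1 was small (-0.24 ± 0.09, adjusted p = 0.028) and its groups overlapped. It was not called without the first untreated library (-0.12, adjusted p = 0.3), the deepest of that group, or without the second dexamethasone library (-0.17, adjusted p = 0.16). With only the groups compared in the fit it was not called either (-0.19, adjusted p = 0.064). Mavs (0.07, adjusted p = 0.47) and Zbp1 (-0.41 ± 0.22, adjusted p = 0.17) were not called, the latter from 108 to 135 counts per dexamethasone library. Conventional dendritic cell markers summed to 15.5 to 15.9 CPM with dexamethasone against 2.16 to 2.97 CPM in untreated cells, with Xcr1 and Ly6d, a plasmacytoid marker, at 0 with dexamethasone. Stromal and endothelial markers were lower, at 1.91 to 2.91 against 14.6 to 21.04 CPM, and plasmacytoid dendritic cell markers higher, at 106 to 116 against 80.1 to 91.7 CPM. Their part in these changes was not tested.

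At 24 h dexamethasone alone lowered 6 genes and raised 3, beside 26.5% and 21.9% of all genes. Zbp1 went from 16.98, 22.6 and 14.5 CPM to 4.56, 5.89 and 4.70 CPM (-1.85 ± 0.20, adjusted p = 2.5e-07), close to its level with dexamethasone at 4 h, 5.24 ± 0.578 CPM. Dhx58 went from 41.8, 48.3 and 37.6 CPM to 15.4, 16.2 and 15.5 CPM (-1.44 ± 0.09, adjusted p = 2.9e-14). Eif2ak2 went from 65.3, 72.7 and 59.8 CPM to 33.5, 38.1 and 32.4 CPM (-0.93 ± 0.07, adjusted p = 7.0e-14). None of these groups overlapped.

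Ifih1 (-0.55 ± 0.09), Adar (-0.44 ± 0.06) and Aim2 (-0.20 ± 0.06) were also lower at 24 h, Aim2 losing its call without the first dexamethasone library (-0.17, adjusted p = 0.053). Tbk1 was higher (0.46 ± 0.05, adjusted p = 4.6e-10). The rises of Mavs (0.18 ± 0.07, adjusted p = 0.027) and Samhd1 (0.17 ± 0.06, adjusted p = 0.018) were small. Mavs was not called when any one of 5 of the 6 libraries was left out, at 0.15 to 0.19 with adjusted p from 0.05 to 0.1. With no filter Mavs was not called either (0.16, adjusted p = 0.13). Samhd1 was not called without the first (0.15, adjusted p = 0.075) or the third untreated library (0.14, adjusted p = 0.086) or the third dexamethasone library (0.16, adjusted p = 0.06). With any one of those 3 libraries left out, 1 of the 3 rises was called. Macrophage markers summed to 29710 to 33910 CPM with dexamethasone against 22020 to 24210 CPM in untreated cells at 24 h. Conventional dendritic cell markers were at 9.99 to 10.8 against 2.06 to 2.26 CPM and plasmacytoid ones at 152 to 165 against 95.8 to 111 CPM. Stromal and endothelial markers were lower, at 5.83 to 8.48 against 15.7 to 23.3 CPM, as were neutrophil markers, at 0.965 to 2.41 against 3.13 to 3.67 CPM. Dcn, Klk1, Ly6g, Camp and Cxcr2 were at 0 with dexamethasone. Their part in these values was not tested.

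Between the times, the effect of dexamethasone alone was more negative at 24 h for Zbp1 (-1.44 ± 0.31, adjusted p = 0.0013), Dhx58 (-0.85 ± 0.12, adjusted p = 2.9e-06) and Eif2ak2 (-0.32 ± 0.10, adjusted p = 0.011), and less positive for Samhd1 (-0.52 ± 0.09, adjusted p = 7.2e-06). These 4 of 9 genes stand beside 16.8% of all genes called lower. No gene of the 9 was called higher with edgeR, at an unadjusted p under 0.05 or with DESeq2, beside 13.8% of all genes. Ifih1 came close to the threshold (-0.31 ± 0.12, adjusted p = 0.057) and was called with DESeq2 (adjusted p = 0.046). The Eif2ak2 difference was not called without the second untreated library of 24 h (-0.24, adjusted p = 0.056).

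The last comparison set the dexamethasone effect with LPS against that without LPS. Samhd1 and Tbk1, which dexamethasone raised in cells without LPS, had effects of opposite sign with LPS at 4 h, except that Tbk1 was not lowered with library size alone as the scale. For Samhd1 the effect was 0.69 without LPS and -0.95 with it, a difference of -1.64 ± 0.09 (adjusted p = 9.2e-18). For Tbk1 it was 0.52 and -0.21, a difference of -0.72 ± 0.07 (adjusted p = 6.1e-11). Ifih1 (-0.74 ± 0.11, adjusted p = 5.4e-06) and Aim2 (-0.48 ± 0.09, adjusted p = 3.0e-05) were lowered more with LPS than without, and Mavs was raised more (0.53 ± 0.11, adjusted p = 8.9e-05). This gives 4 genes lower and 1 higher, beside 17.9% and 20.8% of all genes. Dhx58, Zbp1, Adar and Eif2ak2 were not called, with differences of -0.10 ± 0.11, -0.24 ± 0.26, -0.17 ± 0.08 and 0.06 ± 0.09. Eif2ak2 was called with library size alone as the scale (0.29, adjusted p = 0.0063), and Adar with the stricter filter (-0.21, adjusted p = 0.04).

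At 24 h the differences of Samhd1 (-0.66 ± 0.08, adjusted p = 4.9e-08), Tbk1 (-0.53 ± 0.07, adjusted p = 7.3e-08) and Aim2 (-0.25 ± 0.09, adjusted p = 0.027) were again negative. Dhx58 was lowered less with LPS than without (0.48 ± 0.12, adjusted p = 0.0018). These 3 lower and 1 higher stand beside 17.7% and 20.5% of all genes. The Aim2 call was lost when any one of 6 libraries was left out, at -0.21 to -0.24 with adjusted p from 0.05 to 0.094. With no filter Aim2 was not called either (-0.23, adjusted p = 0.1). Zbp1, which dexamethasone lowered at 24 h both without LPS (-1.85) and with it (-1.81), had a difference of 0.04 ± 0.23 (adjusted p = 0.93), which does not show that the effects are equal.

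**Figure D3:**
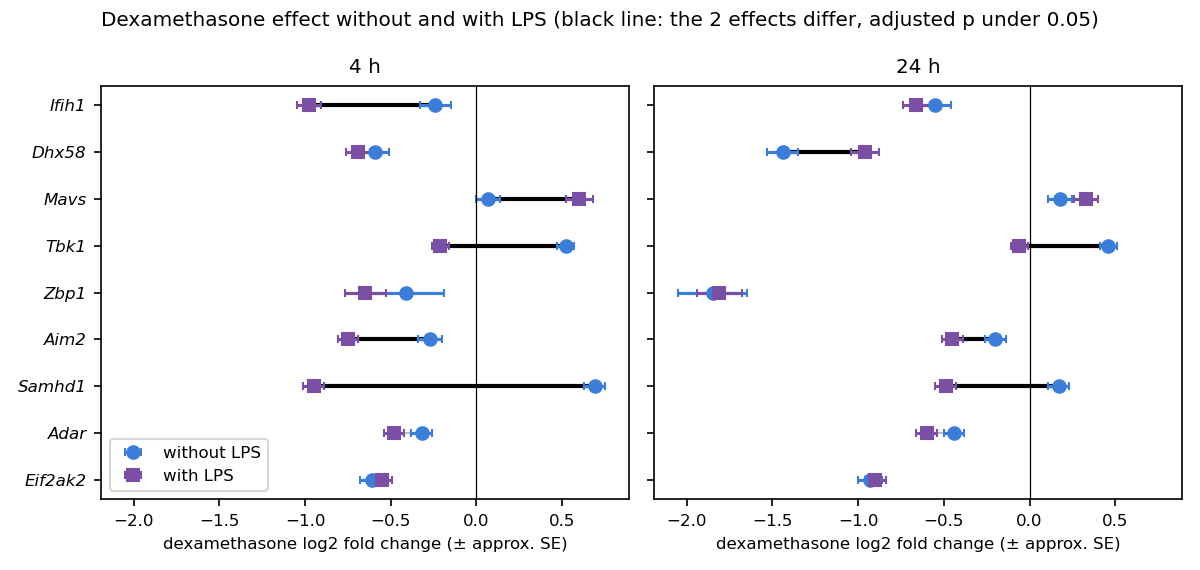
Dexamethasone log2 fold change of each gene without LPS (circles) and with LPS (squares), with the approximate SE, at 4 h and 24 h. A thick black line joins the pair where the test of their difference had an adjusted p under 0.05. At 4 h Samhd1 goes from 0.69 to -0.95, across 0, and Eif2ak2 is at -0.61 and -0.55.

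Across the 24 libraries the members varied together, apart from Mavs. Pearson correlations of log2 CPM between the other 8 genes ran from 0.83 for Zbp1 with Aim2 to 0.99 for Adar with Eif2ak2, and those of Mavs with the others from -0.64 to -0.91. The points share treatments, and most of the range comes from the LPS groups, so these values are a description. Among 9461 genes with at least 5 CPM, the genes most like Ifih1 were Car13 and Dtx3l (both 0.996), those most like Dhx58 were Oas1g (0.997) and Oas1a (0.996), and those most like Eif2ak2 were Trim30a (0.997) and Oasl1 (0.996). Adar was most like Eif2ak2 and Tap1 (both 0.994). Aim2 was nearest to Usb1 (0.993) and Sp140 (0.992), and Samhd1 to Trim30c (0.986) and Pttg1 (0.985). Tbk1 was nearest to Nfkbia (0.992) and Cebpb (0.983), and Zbp1 to Il1b (0.990) and Ifi213 (0.988). Mavs was most like Dmac2 (0.985) and Smpd2 (0.984).

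Other genes of these pathways were counted from 8 lists. Their counts stand beside the shares of all genes, which were 34.2% higher and 38.8% lower with LPS at 4 h, and 23.9% higher and 25.4% lower at 4 h and 21% and 22.6% at 24 h with dexamethasone under LPS. With LPS at 4 h, 9 of 14 other genes of RNA sensing were higher and 3 lower, with a median log2 fold change of 1.35 (-0.07 over all genes). Ifit1, which binds viral RNA caps, went from 16.5 ± 4.20 to 4508 ± 223 CPM (8.07 ± 0.22), and Nlrx1, a mitochondrial regulator of MAVS signalling, fell from 14.4 ± 1.29 to 5.18 ± 1.36 CPM (-1.50 ± 0.14). With dexamethasone under LPS at 4 h, 8 of the 14 were lower and 3 higher. Ifit1 fell to 1879 ± 182 CPM (-1.26 ± 0.16) and Nlrx1 rose to 10.6 ± 1.69 CPM (1.04 ± 0.15). At 24 h the counts were again 8 lower, among them Ddx58, the RIG-I gene, from 276 ± 17.6 to 129 ± 8.81 CPM (-1.10 ± 0.10), and 2 higher, Dhx9 and Nlrx1.

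Of 17 other genes of DNA sensing, LPS raised 10 and lowered 3 at 4 h, with a median of 1.19. Ifi205, a relative of Aim2, went from 0.984 ± 0.308 to 1164 ± 20.5 CPM (10.15 ± 0.15), and Prkdc, the catalytic subunit of the DNA-dependent kinase, fell from 24.1 ± 3.32 to 6.41 ± 0.888 CPM (-1.92 ± 0.14). Dexamethasone under LPS lowered 10 and raised 2 at 4 h, and lowered 7 and raised 2 at 24 h. Tmem173, the STING gene, was lower at 4 h (-1.22 ± 0.08, from 36.7 ± 3.47 to 15.8 ± 1.72 CPM) and higher at 24 h (0.43 ± 0.07, from 44.6 ± 2.84 to 60.1 ± 1.18 CPM).

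The 6 endosomal nucleic acid receptor genes did not move as one. LPS at 4 h raised 4 and lowered 1, Tlr13, a receptor for bacterial ribosomal RNA, from 546 ± 39.5 to 55.4 ± 6.97 CPM (-3.30 ± 0.07). With dexamethasone under LPS Tlr13 was at 202 ± 8.07 CPM (1.87 ± 0.07), the 1 gene of the list that was higher, while 3 were lower. Tlr3, a receptor for duplex RNA, rose with LPS from 10.8 ± 0.802 to 199 ± 5.98 CPM and stood at 105 ± 18.95 CPM with both agents (-0.93 ± 0.08). Dexamethasone alone at 4 h raised Tlr7 from 122 ± 1.06 CPM by a log2 fold change of 1.89 ± 0.07 and Tlr8 by 1.48 ± 0.09.

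Around Mavs and Tbk1, 11 of 12 listed adaptors and kinases were tested, and LPS at 4 h raised 8 and lowered 3. Ikbke, the kinase most closely related to Tbk1, went from 45.3 ± 2.22 to 879 ± 28.7 CPM (4.28 ± 0.06). It was higher still with dexamethasone under LPS, at 1087 ± 48.8 CPM (0.31 ± 0.05, adjusted p = 1.1e-05), where the list had 8 lower and 3 higher. At 24 h Ikbke was again higher, at 538 ± 46.4 against 411 ± 7.50 CPM (0.39 ± 0.05), with 5 of the list lower and 4 higher.

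Among 14 interferon regulatory factors and signalling genes, LPS at 4 h raised 13 and lowered 1, Irf3, the factor that TBK1 phosphorylates, from 50.5 ± 2.55 to 42.0 ± 1.62 CPM (-0.26 ± 0.06). Dexamethasone under LPS then lowered 12 and raised 1, again Irf3 (0.29 ± 0.06), and at 24 h lowered 10 and raised 1, with medians of -0.61 and -0.90. Socs1, an inhibitor of interferon signalling, was the most lowered at both times, from 227 ± 24.7 to 74.0 ± 9.48 CPM at 4 h (-1.61 ± 0.10) and from 26.2 ± 2.55 to 4.33 ± 0.747 CPM at 24 h (-2.60 ± 0.15). Dexamethasone alone at 24 h lowered 10 and raised 2, beside 26.5% and 21.9% of all genes, with Irf7, an interferon regulatory factor that interferon itself raises, at 8.62 CPM against 49.5 ± 12.3 CPM (-2.52 ± 0.14).

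Nucleases and enzymes of RNA or deoxynucleotide processing were mixed. LPS at 4 h raised 10 of 19 and lowered 6, beside 34.2% and 38.8% of all genes, with a median log2 fold change of 0.18. Dexamethasone under LPS lowered 10 and raised 4, beside 25.4% and 23.9%, and the 4 raised are close to that background share. Isg20, an exonuclease gene, rose with LPS from 2.17 ± 0.293 to 226 ± 22.5 CPM and was at 102 ± 23.03 CPM with both agents. Rrm2, a subunit of the enzyme that makes deoxynucleotides and so acts against SAMHD1, fell from 93.8 ± 12.96 to 12.0 ± 0.757 CPM with LPS and was at 28.04 ± 6.82 CPM with both agents (1.23 ± 0.18). Dck, a kinase that salvages deoxynucleosides, had the widest fall of the list at 24 h under LPS, from 201 ± 9.81 to 54.3 ± 1.89 CPM (-1.89 ± 0.07).

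Of 13 cell death partners of Zbp1 and Aim2, LPS at 4 h raised 10 and lowered 2, and dexamethasone under LPS lowered 8 and raised 2. Casp4, which codes for the caspase that senses intracellular LPS, went from 7.72 ± 0.784 to 354 ± 6.44 CPM (5.52 ± 0.08). Mlkl, the effector of necroptosis, was lower with dexamethasone under LPS, at 146 ± 23.3 against 244 ± 14.5 CPM at 4 h (-0.74 ± 0.09) and at 18.3 ± 1.72 against 56.2 ± 1.72 CPM at 24 h (-1.62 ± 0.11). Pycard, the adaptor that joins AIM2 to caspase-1, was higher at both times (0.35 ± 0.07 and 1.18 ± 0.08), the 1 gene of the list raised at 24 h, where 8 were lower.

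Among the 11 listed genes around Eif2ak2, LPS at 4 h raised 5 and lowered 4, beside 34.2% and 38.8% of all genes. The median log2 fold change was -0.06, and that of all genes was -0.07. Eif2ak3, the PERK gene, fell from 38.7 ± 1.29 to 7.02 ± 0.785 CPM (-2.46 ± 0.08) and Eif2ak4, the GCN2 gene, from 34.5 ± 0.815 to 8.39 ± 0.235 CPM (-2.04 ± 0.12). At 24 h LPS raised 7 of the list and lowered 1, Eif2ak4 (-0.36 ± 0.11), beside 29.7% and 30.6% of all genes. With dexamethasone under LPS, where 2 genes were lower and 4 higher, Eif2ak3 was at 17.2 ± 0.280 CPM (1.29 ± 0.09). At 24 h 4 were lower and 3 higher, among them Eif2ak3 (0.75 ± 0.07).

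**Figure D4:**
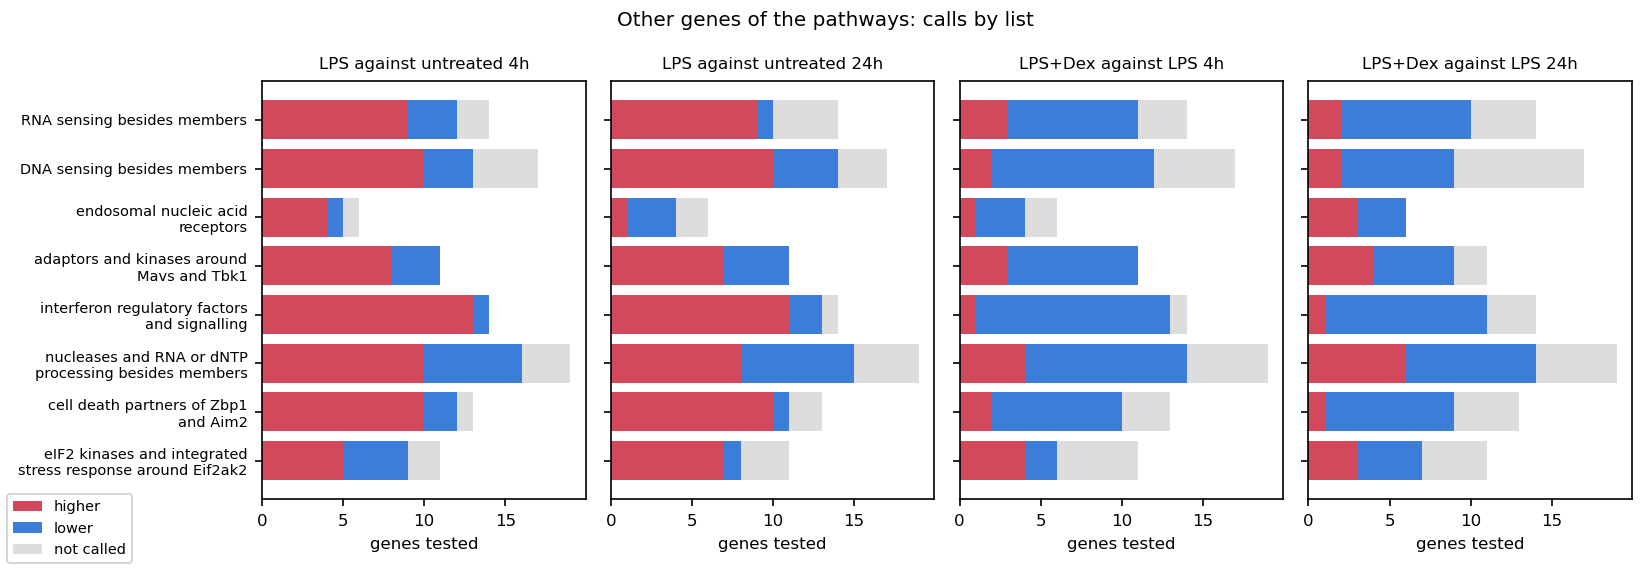
Number of tested genes called higher, lower or not called in 8 lists of other genes of these pathways, for LPS against untreated cells and for dexamethasone added to LPS against LPS, at 4 h and 24 h. The list of interferon regulatory factors and signalling has 13 of 14 genes higher with LPS at 4 h and 12 of 14 lower with added dexamethasone.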

How the data were processed

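The authors deposited raw counts by gene and library, made, per the file header, with featureCounts 2.0.0 from read pairs, unstranded, over the exons of GENCODE M29, without reads that match several places or overlap several genes. STAR is named for the alignment in the submitters' processing notes, with no version. CPM per kilobase divides by the exon length that the deposited table gives for a gene. Gene names were joined from GENCODE M21 on the identifier, which named 52081 of 55357 identifiers.

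All 24 libraries entered 1 fit in edgeR 4.0.16 (R 4.3.3) with a mean per group, TMM factors of 0.679 to 1.184, filterByExpr over the 8 groups, robust dispersions and 16 residual degrees of freedom. Tests were two-sided F tests of contrasts, adjusted by Benjamini-Hochberg over 14985 genes at a threshold of 0.05. The approximate SE divides the size of the log2 fold change by the root of F. The script was tested on simulated data. Alternatives were library size as the scale, DESeq2 1.42.0, no filter, a filter of at least 10 CPM in at least 3 libraries, a fit of the groups compared only, the replicate number as a block, and each library left out in turn.

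Members and gene lists were chosen with earlier results of these data known. All members are named. From each list the text names a part of the genes with the 2 largest rises and 2 largest falls per comparison, at an adjusted p under 0.05 and at least 5 CPM on average over the groups compared. The genes most like a member are the 2 with the highest Pearson correlation over the 24 libraries.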

Additional observations from a re-analysis of the deposited data

Results flagged for a closer look

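For 29 results an effect differed between times or between cells with and without LPS by edgeR's test of the difference itself (adjusted p under 0.05). The values are differences of log2 fold changes.

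The LPS effect at 24 h less that at 4 h was -3.73 for Ifih1, -1.50 for Dhx58, 1.15 for Mavs, -0.80 for Tbk1 and -2.02 for Zbp1. It was -2.70 for Aim2, -2.52 for Samhd1, -1.36 for Adar and -1.87 for Eif2ak2. The effect of dexamethasone alone differed in the same sense by -0.85 for Dhx58, -1.44 for Zbp1, -0.52 for Samhd1 and -0.32 for Eif2ak2.

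The dexamethasone effect under LPS at 24 h less that at 4 h was 0.32 for Ifih1, -0.28 for Dhx58, -0.26 for Mavs and -1.16 for Zbp1. It was 0.31 for Aim2, 0.46 for Samhd1 and -0.34 for Eif2ak2.

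The dexamethasone effect with LPS less that without LPS was, at 4 h, -0.74 for Ifih1, 0.53 for Mavs, -0.72 for Tbk1, -0.48 for Aim2 and -1.64 for Samhd1. At 24 h it was 0.48 for Dhx58, -0.53 for Tbk1, -0.25 for Aim2 and -0.66 for Samhd1.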

How the results depend on the processing

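Of the 126 results per gene and comparison, 118 kept their side of the threshold with library size as the scale. Called results among them also kept their direction. The same held for 122 with DESeq2, 121 with no filter, 121 with the stricter filter and 122 with only the groups compared in the fit. Of 1026 values with 1 library left out, it held for 978, while 40 lost the call and 8 gained it. A change of sign was not counted where a result was called in neither fit. Tbk1 in LPS plus dexamethasone against LPS at 4 h changed sign with library size as the scale, to 0.02. Counts of members moved as follows. With LPS at 24 h, members called lower went from 0 to 1 with library size as the scale, the stricter filter or only the groups compared, and ran from 0 to 1 with 1 library left out. Members raised by dexamethasone alone at 24 h ran from 1 to 3, and members lower in untreated cells at 24 h than at 4 h from 1 to 2, with 1 library left out. For the dexamethasone effect under LPS between the times, members called higher were 1 with library size as the scale, and members called lower were 2 with DESeq2 or the stricter filter and 2 to 4 with 1 library left out. For the dexamethasone effect with against without LPS at 4 h, members called higher were 2 with library size as the scale. The cause was not tested. Over all genes, library size as the scale moved calls higher and lower with LPS at 4 h from 5118 and 5812 to 2434 and 9779, with LPS at 24 h from 4455 and 4591 to 3079 and 6279, and with dexamethasone under LPS at 4 h from 3581 and 3807 to 5974 and 2365. For both agents against untreated the calls moved from 5053 and 5474 to 2710 and 8905 at 4 h and from 4317 and 4538 to 3153 and 5958 at 24 h. The LPS effect between times moved from 4617 and 4568 to 7692 and 2573, dexamethasone under LPS between times from 2846 and 2962 to 1937 and 4808, and dexamethasone with against without LPS at 4 h from 3122 and 2675 to 5279 and 1566. The replicate numbers gave no sign of pairing the libraries, and the labels do not say what a number stands for. Deviations from group means correlated at -0.16 to 0.11 between the 84 pairs with the same number, with a median of -0.01, and 3 pairs were over 0.1. Between the 168 pairs with different numbers the correlations ran from -0.17 to 0.16, with a median of 0, and 7 were over 0.1. Such a check cannot show that the libraries were unpaired. With the replicate number as a block all 126 results kept their side of the threshold, and the called ones their direction. Zbp1 in LPS plus dexamethasone against LPS at 24 h, for example, was at -1.81. Zbp1 and Mavs had the lowest counts of the 9 genes, 108 and 261 in their lowest libraries. The part of depth in the changes of call was not tested.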
